A study of Rattus norvegicus with 8 samples.

Results

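The genes described here are 10 endoplasmic reticulum (ER) folding genes and their regulators: Hspa5, Hsp90b1, Calr, Canx, Pdia3, Pdia4, Pdia6, Dnajb9, Herpud1 and Xbp1. Every probe set annotated to 1 of these symbols was taken, which gave 13 of the 15866 probe sets of chip A and 0 of the 15276 of chip B. All 10 genes were represented, Canx by 3 probe sets, Pdia3 by 2 and the others by 1 each, out of 13810 genes named on the 2 chips together. RNA came from PC12, a line grown from a pheochromocytoma of the rat adrenal medulla, and was measured on 8 arrays. Chip A had 2 arrays from cells given forskolin (spelled foreskolin in the labels), a plant diterpene that activates adenylyl cyclase and so raises cyclic AMP, and 2 arrays from cells with no forskolin. Chip B had the same 2 groups of 2 arrays. Forskolin's dose and duration, and what the inactive control of the title was, are not stated in the labels. Nothing in the labels ties replicates to separate cultures, and the p-values therefore reflect the spread between these arrays alone, which could be technical.

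The unfolded protein response is the transcriptional answer of a cell to unfolded protein in the ER. Among its sensors, IRE1 splices the Xbp1 mRNA, ATF6 is cut to release a transcription factor, and PERK phosphorylates the translation factor eIF2 and thereby raises ATF4. ATF6, with NF-Y, and XBP1 switch on the chaperone genes, whereas ATF4 switches on genes of amino acid metabolism and of recovery of translation. Chromaffin cells, the normal counterpart of PC12, fold large amounts of secretory protein in the ER.

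The promoters are shown first because they carry the sequence these genes are best known for sharing. Since the genes are known for it, the counts below describe where it lies and do not test whether they share it. RefSeq promoter windows (assembly GRCr8, 250 bases before to 50 after the gene start used in that table) were found for 8 of the 10 genes, all but Pdia3 and Pdia6. Both strands were searched for the ER stress response element (ERSE: CCAAT, 9 free letters, CCACG), the related ERSE-II (ATTGG, 1 free letter, CCACG), the core of the XBP1-bound unfolded protein response element (TGACGTGG) and the cyclic AMP response element (CRE, TGACGTCA). A pair of shorter motifs was added: TGACG, the core of the CRE, which is also contained in TGACGTGG, and the CCAAT box, which is contained in the ERSE and, on the other strand, in the ERSE-II. An ERSE was found in 5 of the 8 promoters, those of Hspa5, Hsp90b1, Calr, Canx and Xbp1, and in 0.0657% of all 33469 promoters of the table. The Herpud1 promoter held the ERSE-II, found in 0.0508% of all promoters. The elements are written below to read towards CCACG, with the fixed letters in capitals and the free letters in lower case.

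Hspa5: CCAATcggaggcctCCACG
Hsp90b1, upstream copy: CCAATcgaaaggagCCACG
Hsp90b1, downstream copy: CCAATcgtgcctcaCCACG
Calr: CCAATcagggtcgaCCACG
Canx: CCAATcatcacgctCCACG
Herpud1 (ERSE-II): ATTGGgCCACG
Xbp1: CCAATcgcagacggCCACG

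The ERSE of Hspa5 lay at -43 to -25 from the gene start and that of Xbp1 at -65 to -47. The Hsp90b1 promoter held a pair, at -176 to -158 and, on the other strand, at -72 to -54. Those of Calr (-232 to -214, other strand) and Canx (-230 to -212) lay further upstream, and the ERSE-II of Herpud1 lay at -124 to -114. The Pdia4 and Dnajb9 promoters matched neither element in this window. A match here describes letters, not a bound site. A CCAAT box was present in 8 of 8 promoters, against 37.5% of all promoters, and TGACG in 6 of 8, against 21.2%. Promoters of other ER genes, in lists described below, were searched too: 29 of folding enzymes, 15 of ER-associated degradation and 18 of translocation. TGACG was in 14, 9 and 9 of these, and a CCAAT box in 17, 9 and 5. An ERSE was in 3, 1 and 0, and an ERSE-II in 2, 0 and 0. Of 10 promoters of sensors and transcription factors, 3 held TGACG, 5 a CCAAT box and 0 either element. The full CRE and TGACGTGG were in 0 of the 8 promoters of the genes described here. Of all promoters 1.83% and 0.595% held them, so 0 of 8 is no departure from those shares. TGACGTGG was in 2 of the 29 promoters of folding enzymes and 3 of the 15 of ER-associated degradation. It was in 0 of the 18 of translocation and 0 of the 10 of sensors and transcription factors. The full CRE was in 0 promoters of each of these lists. The 8 windows were richer in G and C (59.7% to 69.3%) than the median promoter of the table (51.7%). The whole window is shown for Hspa5, the gene most used as a readout of the response, and for Herpud1, the gene with the largest difference between the groups, with the ERSE or ERSE-II in capitals. The Hspa5 window is chr3:38452766-38453065 on the plus strand, and the Herpud1 window is chr19:10614658-10614957 on the minus strand.

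Hspa5 promoter: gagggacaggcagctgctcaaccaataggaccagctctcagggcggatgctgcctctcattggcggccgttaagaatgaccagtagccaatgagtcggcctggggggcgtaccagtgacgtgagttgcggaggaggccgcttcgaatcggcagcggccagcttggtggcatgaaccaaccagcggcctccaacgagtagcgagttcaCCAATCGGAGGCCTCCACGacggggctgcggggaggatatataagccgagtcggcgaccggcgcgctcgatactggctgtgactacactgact
Herpud1 promoter: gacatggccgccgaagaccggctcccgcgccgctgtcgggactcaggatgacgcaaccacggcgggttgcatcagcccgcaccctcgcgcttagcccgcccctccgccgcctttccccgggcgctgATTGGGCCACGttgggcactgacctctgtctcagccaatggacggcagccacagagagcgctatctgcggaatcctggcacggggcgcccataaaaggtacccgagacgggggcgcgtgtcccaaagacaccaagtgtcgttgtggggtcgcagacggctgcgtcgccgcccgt

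**Figure D1:**
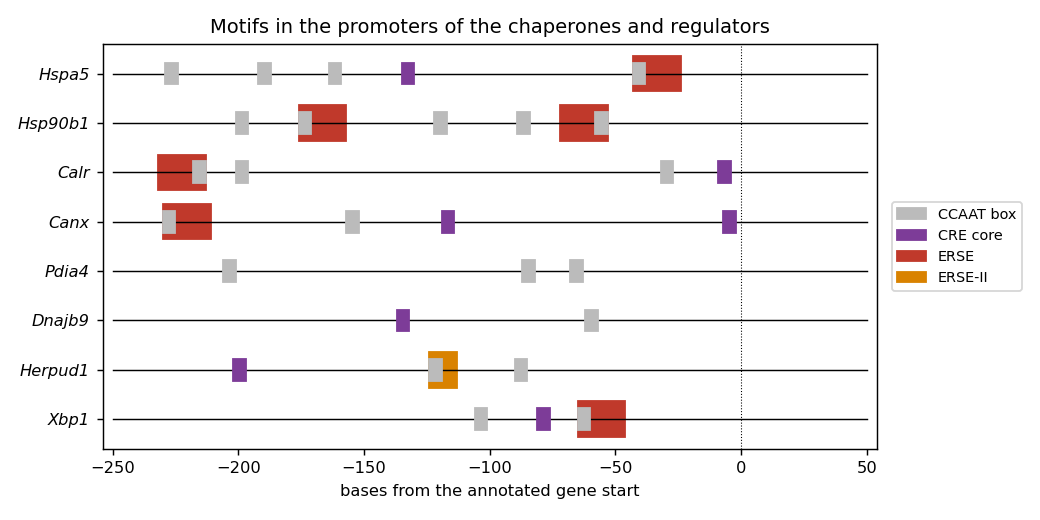
Position of the motifs in the promoter windows of 8 genes, in bases from the annotated gene start (dotted line). Red boxes are ERSE, the orange box is ERSE-II, purple boxes are TGACG (the CRE core) and grey boxes are CCAAT boxes, on either strand; 5 genes carry an ERSE, and Hsp90b1 carries 2.

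Values are on the authors' log2 scale. All 13 probe sets passed the filter on dim probe sets, which kept 11106 of 15866 on chip A. On that chip the array medians lay between 8.153 and 8.174 (log2), and arrays of the same group correlated across probe sets at 0.9991 to 0.9992. The chromaffin markers Th (11.75 with forskolin, 11.64 with no forskolin; log2 means, n = 2 each) and Chgb (11.97 with forskolin, 11.82 with no forskolin) lay far above the lowest mean level the filter kept, 7.02. Dbh (6.88 with forskolin, 6.69 with no forskolin) and Slc18a1 (6.79 with forskolin, 6.90 with no forskolin), which chromaffin cells also express, lay below it. Of the markers of other cell types, the fibroblast marker Col3a1 was also high, at 11.83 with forskolin and 11.82 with no forskolin. Other fibroblast markers were lower. Col1a1 measured 9.25 with forskolin and 9.11 with no forskolin on its brighter probe set, and Dcn 7.88 and 7.90. Col1a2, Lum and Pdgfra lay below the filter. Of the 7 tested markers of chromaffin and PC12 cells, limma called 1 higher, the transcription factor gene Phox2a, which was named after its values were seen (12.43 with forskolin, 12.02 with no forskolin, adjusted p = 0.000102), and 0 lower. Its part in the results below was not tested. Limma called 0 of the tested markers of blood and endothelium (3 genes), adrenal cortex (2), glia (3) and fibroblasts (3). Over all tested probe sets it called 3.30% on chip A (2.03% higher, 1.26% lower) and 0.159% on chip B. At these shares, counts this small cannot show that those cell types did not change. All 8 genes known to respond to cyclic AMP that were taken as a check (Fos, Nr4a1, Nr4a2, Crem, Sik1, Dusp1, Per1 and Pde4d) rose on their brightest tested probe set. The rise was 0.71 to 3.24 (log2) for the 6 whose means lay above 7.02 in both groups. Fos (9.25 with forskolin, 5.22 with no forskolin) and Nr4a2 (8.95 with forskolin, 6.62 with no forskolin) passed the filter only through their forskolin arrays, so no size is given for them. Another tested Fos probe set, 1371283_at, measured 7.92 with forskolin and 7.86 with no forskolin and was not called (limma adjusted p = 0.519).

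None of the 13 ER chaperone probe sets was called higher or lower. Forskolin was compared with no forskolin with limma over all 11106 tested probe sets, and a call is an adjusted p under 0.05 (Benjamini-Hochberg). At that threshold 3.30% of all tested probe sets were called, 2.03% higher and 1.26% lower. At an unadjusted p under 0.05, 1 of the 13 passed, against 17.4% of all tested probe sets. The log2 differences, forskolin minus no forskolin, ran from -0.17 for Herpud1 to 0.12 for the dimmer Pdia3 probe set. They were above 0 for 7 probe sets and below 0 for 6, with a median of 0.016, against a median of -0.008 over all tested probe sets. The median size of the difference, regardless of sign, was 0.049, against 0.048 over all tested probe sets. The groups did not overlap for 7 of the 13 probe sets, 4 with both forskolin arrays above and 3 with both below, against 48.5% of all tested probe sets (20.4% above, 28.0% below). RNA came from whole cultures, so less RNA per cell and fewer cells expressing a gene cannot be told apart.

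The standard error of the log2 difference lay between 0.029 and 0.052 for these probe sets, against a median of 0.045 over all those tested. For 12 of the 13, the 95% interval lay wholly within 0.25 of 0 on the log2 scale, which is 1.19-fold. The highest upper bound was 0.24, or 1.18-fold, for the dimmer Pdia3 probe set. The lowest lower bound was -0.26, or 1.20-fold down, for Herpud1. The standard errors and intervals are those of limma, which draws the variance of each probe set towards that of probe sets of similar level. They rest on 2 arrays per group and cover the spread between arrays only.

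**Figure D2:**
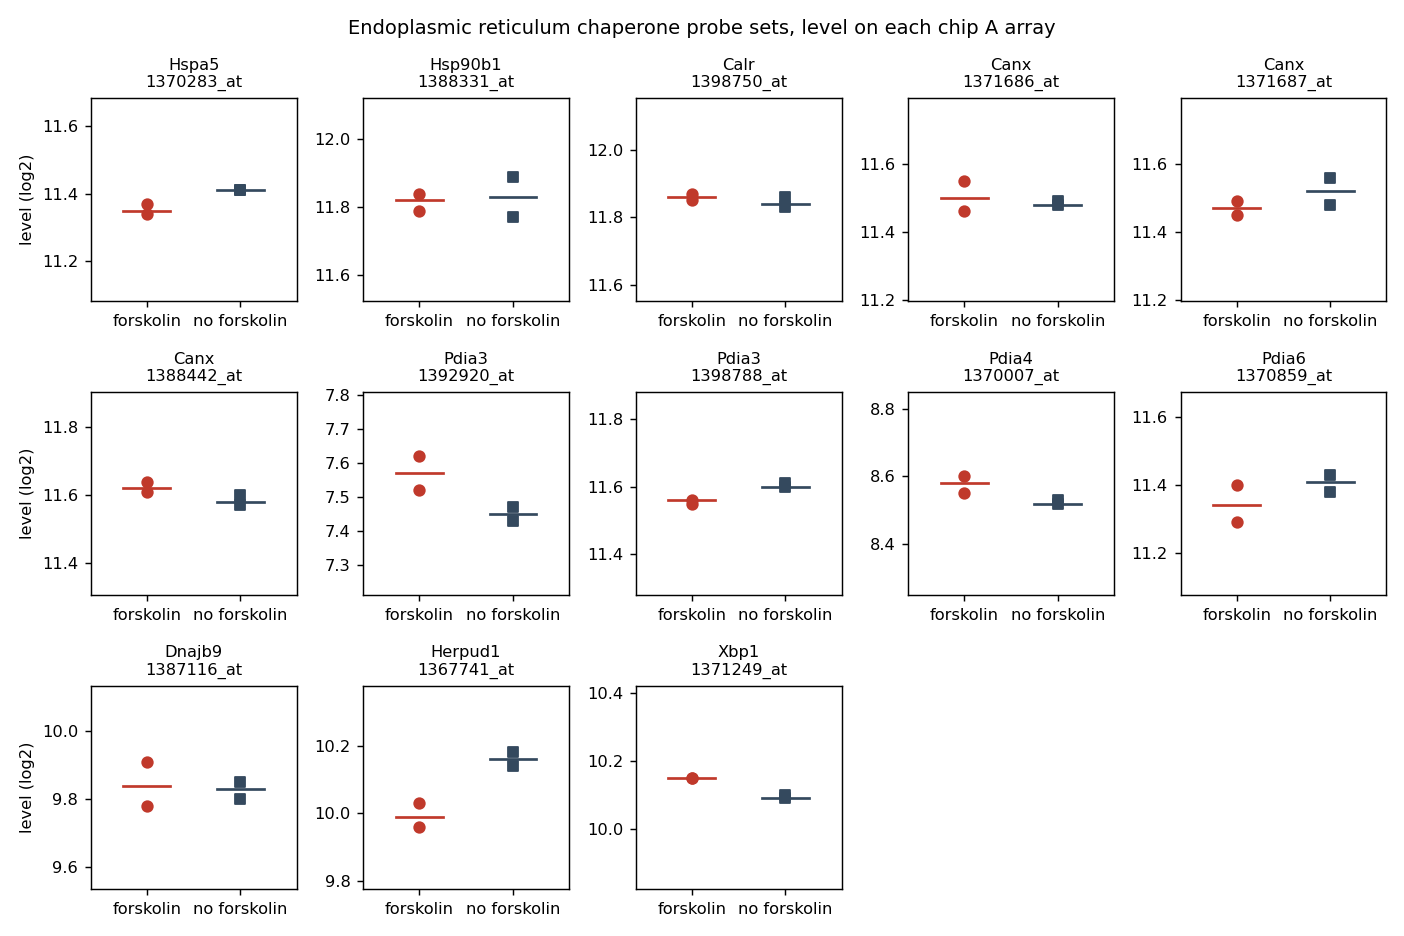
Level (log2) of each of the 13 ER chaperone probe sets on the 4 chip A arrays, with forskolin (red circles) left of no forskolin (blue squares) and lines at the group means; each panel spans 0.6 log2 units around its own centre. The group means differ by 0.17 for Herpud1 and by at most 0.12 in the other panels.

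Limma called none of the central chaperones, Hspa5, Hsp90b1 and Dnajb9. Hspa5, also called BiP or GRP78, is the ER member of the HSP70 family, which binds unfolded chains and keeps the sensors of the response inactive. Its level was 11.34 and 11.37 on the forskolin arrays, against 11.41 and 11.41 on the arrays with no forskolin (log2). Both forskolin arrays lay below both others, but by a small step, a difference of -0.056 ± 0.031 (log2, SE, n = 2 per group), or 3.8% less signal, with a 95% interval of -8.4% to 1.0% (limma adjusted p = 0.396). Hsp90b1, or GRP94, is the HSP90 of the ER. It measured 11.79 and 11.84 with forskolin, against 11.77 and 11.89 with no forskolin, so the groups overlapped (difference -1.1%, interval -7.6% to 6.0%, limma adjusted p = 0.903). Dnajb9, or ERdj4, is a J-domain cochaperone of Hspa5 that is strongly induced by XBP1 in stressed cells. Its 2 forskolin arrays, at 9.91 and 9.78, spanned those with no forskolin, at 9.80 and 9.85, and the interval of its difference ran from -6.6% to 9.5% (limma adjusted p = 0.913).

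Calreticulin (Calr) and calnexin (Canx) are the lectin chaperones, which hold glycoproteins by their trimmed sugar chains, the first in the lumen and the second in the membrane. Calr measured 11.87 and 11.85 with forskolin, against 11.86 and 11.83 with no forskolin. The arrays overlapped and the interval, -3.5% to 5.9%, was among the narrowest of the set (limma adjusted p = 0.844). The 3 Canx probe sets, which share 1 accession in the annotation, did not point the same way. Probe set 1388442_at measured 11.64 and 11.61 with forskolin, against 11.57 and 11.60 with no forskolin, a difference of 2.8%. Probe set 1371687_at measured 11.45 and 11.49 with forskolin, against 11.48 and 11.56 with no forskolin, a difference of -3.3%, and 1371686_at differed by 1.4%. The limma adjusted p of the 3 was 0.564, 0.532 and 0.839, and the bounds of their intervals ran from -8.8% to 8.1%.

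The protein disulfide isomerases Pdia3, Pdia4 and Pdia6 form and rearrange disulfide bonds in the ER, and Pdia3 (ERp57) works together with calnexin and calreticulin. The brighter Pdia3 probe set, 1398788_at, measured 11.55 and 11.56 with forskolin, against 11.61 and 11.60 with no forskolin. Both forskolin arrays were lower, by 3.0% on average (interval -7.4% to 1.6%, limma adjusted p = 0.482). The dimmer one, 1392920_at, went the other way, with 7.52 and 7.62 with forskolin, against 7.47 and 7.43 with no forskolin. Its difference of 8.5% (interval -0.2% to 17.9%, limma adjusted p = 0.296) was the highest of the 13, at a level near the lowest the filter kept. Pdia4 (ERp72) measured 8.55 and 8.60 with forskolin, against 8.53 and 8.52 with no forskolin, a difference of 3.9% (interval -2.9% to 11.1%, limma adjusted p = 0.546). Pdia6 (P5) measured 11.29 and 11.40 with forskolin, against 11.38 and 11.43 with no forskolin. The forskolin arrays of Pdia6 differed from each other more than the groups did, and its interval ran from -10.5% to 2.4% (limma adjusted p = 0.487).

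Herpud1 and Xbp1 stand on the side of regulation and disposal. Herpud1 is a membrane protein of ER-associated degradation, the pathway that exports misfolded proteins to the proteasome, and is a common readout of the stress response. It measured 9.96 and 10.03 with forskolin, against 10.18 and 10.14 with no forskolin. Both forskolin arrays were lower than both others, and the difference of -0.17 ± 0.039 (log2, SE, n = 2 per group), or 11.0% less signal, had a 95% interval of -16.4% to -5.3%. It was the 1 probe set of the 13 that passed before adjustment, and it missed the threshold after it (limma adjusted p = 0.0667). Under median centring of the arrays and under quantile normalization, with a difference of -0.17 in both, limma called it lower (adjusted p = 0.0216 and 0.0341). In the other 8 settings tried the adjusted p lay between 0.0576 and 0.204. Xbp1 encodes the transcription factor that IRE1 activates by splicing, and its gene is itself induced by ATF6. It measured 10.15 and 10.15 with forskolin, against 10.10 and 10.09 with no forskolin, a difference of 4.2% (interval -1.4% to 10.2%, limma adjusted p = 0.418) with both forskolin arrays above. The spliced and unspliced forms of Xbp1 were not measured separately.

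**Figure D3:**
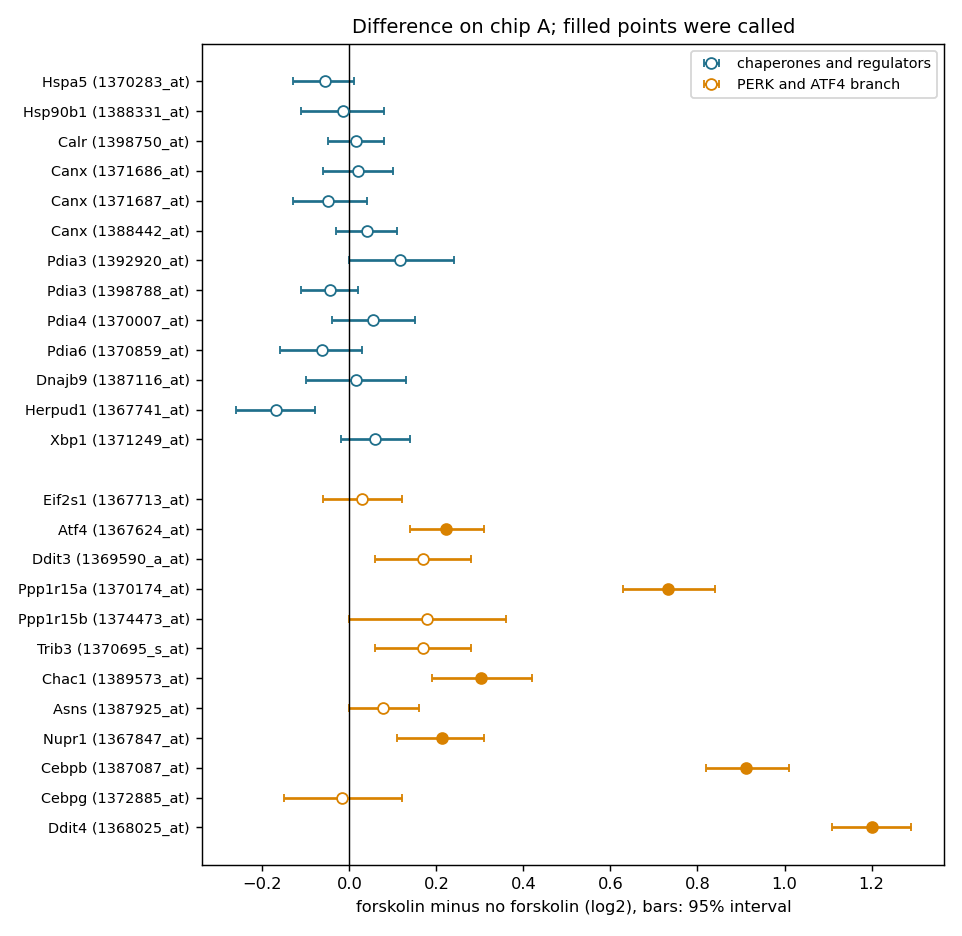
Forskolin minus no forskolin (log2) on chip A, with the 95% interval of limma, for the 13 ER chaperone probe sets (blue) and, below them, 12 genes of the PERK and ATF4 branch (orange); filled points were called at adjusted p under 0.05. All blue points lie between -0.17 and 0.12. Of the orange points, Ppp1r15a, Cebpb and Ddit4 lie at 0.73, 0.91 and 1.20, and the others between -0.016 (Cebpg) and 0.30 (Chac1).

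No array held the 13 probe sets high or low as a set. Set against each probe set's own mean over the 4 arrays, the average deviation was -0.017 and 0.011 (log2) on the 2 forskolin arrays and -0.004 and 0.010 on the 2 arrays with no forskolin. On these arrays 6 and 8 of the 13 probe sets, with forskolin, and 5 and 7, with no forskolin, lay above their own mean. The 5 genes with an ERSE in the promoter window had differences on both sides of 0, from -0.056 for Hspa5 to 0.060 for Xbp1, without a call.

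**Figure D4:**
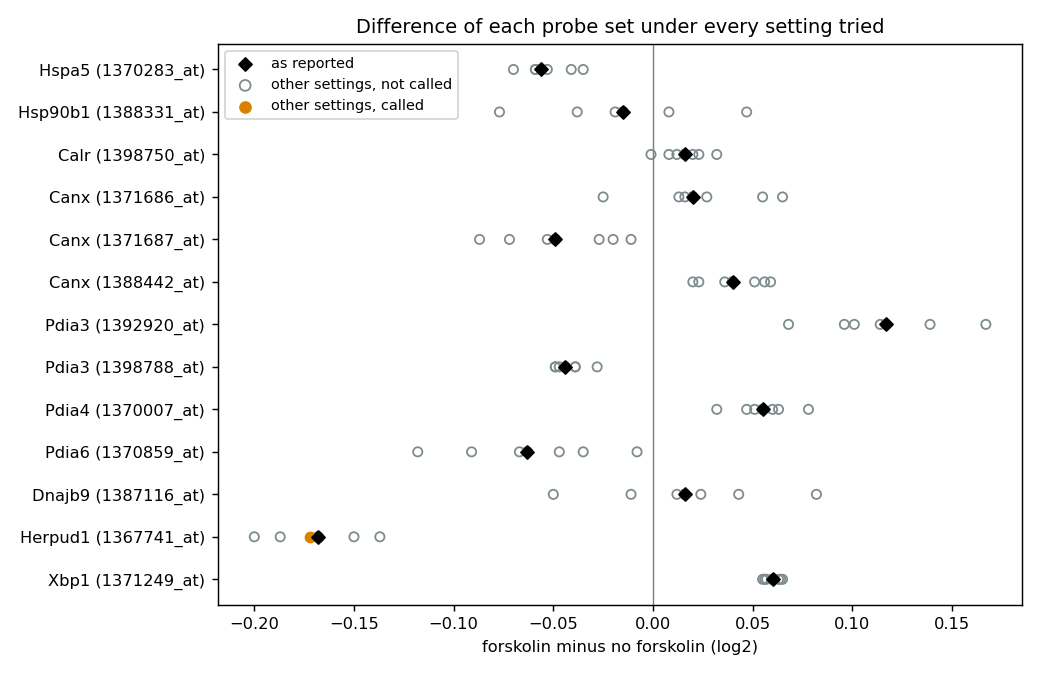
Forskolin minus no forskolin (log2) of each ER chaperone probe set as reported (black diamonds) and under 10 other settings, 9 for the dimmer Pdia3 probe set (open circles, or orange where called). Herpud1 stays between -0.20 and -0.14, whereas Hsp90b1, Calr, Dnajb9 and 1 of the 3 Canx probe sets cross 0 when single arrays are left out.

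Other parts of the ER machinery were looked up in 4 lists of genes that are not among the 10. Of 75 tested genes in these lists, each through its brightest probe set, limma called 0 in either direction. Over all tested probe sets it called 3.30% on chip A and 0.159% on chip B. At these shares, 0 calls in lists of this size cannot show that their genes did not change. Before adjustment, 3 of the 75 genes passed p under 0.05 as higher and 14 as lower. The shares of all tested probe sets that did so were 7.10% higher and 10.3% lower on chip A, and 1.64% higher and 3.33% lower on chip B. Their differences lay between -0.17 and 0.15 (log2), with 22 above 0 and 52 below. On chip A 55.0% of all tested probe sets were below 0, and 61.9% on chip B. Of the 75 genes, 4 were tested on chip B.

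Of 28 tested further folding enzymes and cochaperones, such as P4hb, Hyou1, Dnajb11, Sdf2l1 and Manf, 0 were called, and their median difference was -0.027 (log2). The smallest p was that of Txndc5, a protein disulfide isomerase, at 10.73 and 10.73 with forskolin, against 10.61 and 10.56 with no forskolin (difference 0.15, interval 0.06 to 0.23, limma adjusted p = 0.0771). It was called higher under median centring and quantile normalization (limma adjusted p = 0.0421 and 0.0376). Of 16 genes of ER-associated degradation, among them Sel1l, Syvn1, Derl1 and Edem1, 0 were called, and the median was -0.031. The smallest p there belonged to Ube2g2, a ubiquitin-conjugating enzyme, at -0.15 (interval -0.24 to -0.05, limma adjusted p = 0.114).

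Of 12 sensors and transcription factors of the response, among them Eif2ak3, which encodes PERK, Atf6 and Mbtps1, 0 were called, with a median of -0.026. Nfya, a subunit of the factor NF-Y that binds the CCAAT box, had the smallest p on its brighter probe set, at -0.17 (interval -0.29 to -0.06, limma adjusted p = 0.131), while its other probe set measured -0.015. Of 19 genes of translocation into the ER and of signal peptide removal, 0 were called and 17 were below 0, with a median of -0.038. Sec61g, a subunit of the translocation channel, had the smallest p at -0.13 (interval -0.21 to -0.05, limma adjusted p = 0.101).

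In the PERK and ATF4 branch, limma called 6 of 13 tested genes higher and 0 lower. This compares with 3.30% of all tested probe sets called on chip A, where 12 of the 13 were tested. The median difference of the list was 0.18 (log2), against -0.008 over all tested probe sets of that chip. The list was chosen with earlier results of these data known, so neither comparison is an independent test of it. Ddit4, an inhibitor of mTOR complex 1 that also responds to hormones and low oxygen, measured 10.83 and 10.78 with forskolin, against 9.59 and 9.62 with no forskolin, a 2.30-fold rise (limma adjusted p = 3.77e-07). Cebpb, a transcription factor gene that cyclic AMP is also known to induce, rose 1.88-fold, at 11.37 and 11.28 with forskolin, against 10.39 and 10.44 with no forskolin (limma adjusted p = 3.53e-06). Ppp1r15a, or GADD34, brings the phosphatase that restores translation to eIF2 and rose 1.66-fold, with 9.64 and 9.55 with forskolin, against 8.84 and 8.89 with no forskolin (limma adjusted p = 3.13e-05). Its promoter window was the 1 of 14 found for this list that held the full CRE, against 1.83% of all promoters. TGACG was in 5 of the 14, those of Ppp1r15a, Chac1, Trib3, Cebpb and Atf4, against 21.2% of all promoters. A CCAAT box was in 7 of the 14, against 37.5%. An ERSE or an ERSE-II was in 0 of the 14, against 0.0657% and 0.0508% of all promoters, so 0 is no departure from that share. Whether the CRE has a part in the rise of Ppp1r15a was not tested.

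Smaller rises were called for Chac1, which degrades glutathione (1.23-fold, limma adjusted p = 0.0130), and for Atf4 itself (1.17-fold, adjusted p = 0.0164) and the stress gene Nupr1 (1.16-fold, adjusted p = 0.0378). Atf4 and Nupr1, and the genes of the next sentences, were chosen after their values were seen. Ddit3, or CHOP, the best-known late target of the branch, measured 7.74 and 7.80 with forskolin, against 7.58 and 7.62 with no forskolin, and was not called (difference 0.17, interval 0.06 to 0.28, limma adjusted p = 0.120). Trib3 had the same difference and adjusted p on its brightest probe set, and Asns, the asparagine synthetase gene that ATF4 induces, measured 0.077 (interval 0.00 to 0.16, adjusted p = 0.307). Atf3 lay below the filter, at 5.72 with forskolin and 5.73 with no forskolin. Without forskolin replicate 2 the list held 3 calls, since Atf4, Chac1 and Nupr1 then had adjusted p of 0.0688, 0.0503 and 0.157. Nupr1 was not called in 6 of 10 other settings, where its adjusted p lay between 0.0562 and 0.157, and Chac1 was not called in 3 of 10 (0.0503 to 0.0547). Whether this list differs from the 10 ER genes was not tested.

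**Figure D5:**
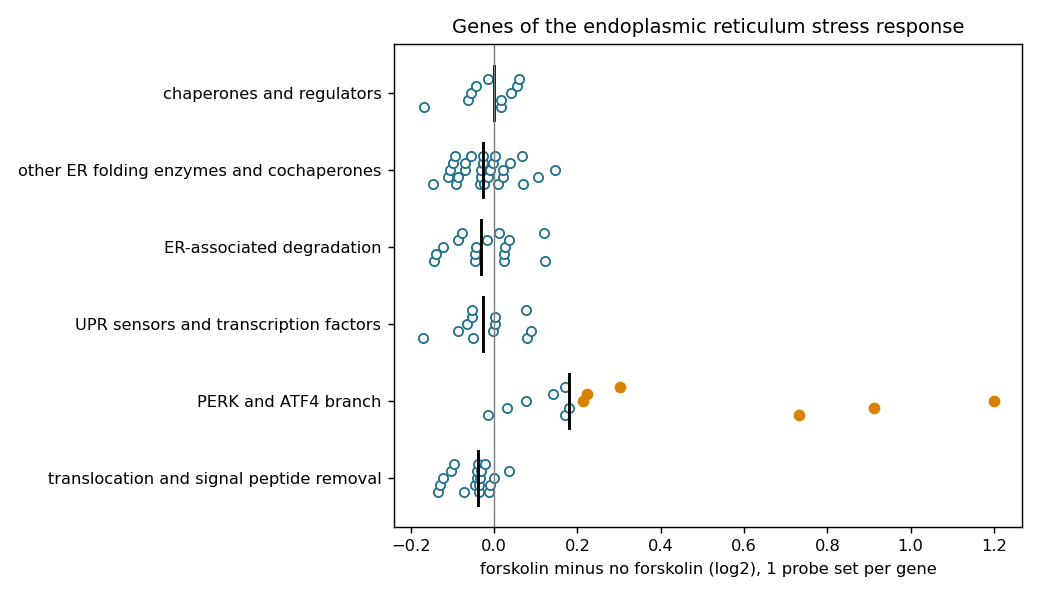
Forskolin minus no forskolin (log2) for 1 probe set per gene in the 10 ER chaperones and regulators and in 5 further lists; filled orange points were called, open points were not, and black bars are list medians. The medians lie between -0.038 and 0.001 in every list but the PERK and ATF4 branch, where the median is 0.18.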

How the data were processed

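Total RNA of PC12 cells had been measured on 2 chips of 4 arrays each (2 with forskolin, 2 with no forskolin), grouped by the sample titles. The deposited tables hold log2 expression values for each probe set and array, made by the authors in steps not given in the sources used here. Base 2 is an inference: as natural logarithms, 3063 chip A values would exceed a 16-bit scanner. Array medians of a chip lay within 0.1 log2, so the scaling was kept as deposited. Detection calls were not used here, so signal over background is unknown.

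Probe sets under the 30th percentile of mean linear value were left out. Each chip was fitted with limma 3.58.1 in R 4.3.3 (lmFit, eBayes with an intensity trend, two-sided), with Benjamini-Hochberg adjustment over every probe set tested on it (threshold 0.05). Percent differences are back-transformed log2 differences. The fit was tested on simulated data. On chip A it called 39.2% of simulated log2 changes of 0.25 and 84.4% of those of 0.5, and on chip B 0.4% and 18.8%. How often a change of 0.25 would be missed among the 13 ER chaperone probe sets was not tested. Their standard errors lay between 0.029 and 0.052, against a median of 0.045 over all probe sets tested on chip A. Gene symbols came from the platform annotation at GEO, updated by Entrez number to RefSeq (GRCr8): 12783 chip A probe sets carried 1 symbol, 312 several and 2771 none, of which 12748 matched RefSeq, against 7564, 100, 7612 and 7524 on chip B. Each listed gene was represented by the brightest of its tested probe sets, with chip A preferred. Named genes were all probe sets of the 10 genes, up to 4 called genes per further list by smallest p, and otherwise the gene with the smallest p. Members and lists were chosen with earlier results of these data known. Alternatives were 2 scalings, 2 filters, eBayes without a trend, a replicate block, leaving out each array, and representatives by smallest p.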

Additional observations from a re-analysis of the deposited data

How the results depend on the processing

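Of the 13 ER chaperone probe sets, 0 were called higher under any of the settings, and 1, Herpud1, was called lower under median centring and under quantile normalization. Leaving out single arrays gave 0 calls for the set each time. It turned the sign of small differences: the log2 difference of Hsp90b1 ran from -0.077 to 0.047, that of Dnajb9 from -0.050 to 0.082, that of Canx probe set 1371686_at from -0.025 to 0.065 and that of Calr from -0.001 to 0.032. With a filter at the 50th percentile the dimmer Pdia3 probe set was not tested. The further folding enzymes held 1 higher call, Txndc5, under median centring and under quantile normalization. The PERK and ATF4 list held between 3 and 7 higher calls when single arrays were left out. Nupr1 was not called without the filter (adjusted p = 0.0562), without a trend (0.0573), with the replicate block (0.0593), or without forskolin replicate 1 (0.0619), forskolin replicate 2 (0.157) or no forskolin replicate 1 (0.101). Chac1 was not called with the block (0.0532) or without forskolin replicate 1 (0.0547) or 2 (0.0503). Over all of chip A, lower calls numbered 140 as reported, 277 with median centring, and 83 to 192 with single arrays left out (83 without forskolin replicate 1, 85 without forskolin replicate 2). On chip B, 16 higher calls and 1 lower call became 27 and 3 with quantile normalization, and 10 to 41 and 0 to 57 with single arrays left out, with 57 lower calls without no forskolin replicate 1 and 41 higher calls without no forskolin replicate 2. Same-numbered arrays deviated together with a correlation of 0.003 for chip A and 0.197 for chip B, so the numbers were not taken as a pairing. With the replicate number as a block, chip A had 46 lower calls and chip B had 2, and the 13 probe sets still held 0 calls. The causes were not tested. The number of arrays limits the precision.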
